A study of Mus musculus with 2 samples.

Results

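Meox1, Meox2, Tcf15, Foxc1, Foxc2, Pax3, Pax1, Pax9 and Eya1 are 9 regulators of transcription that mark the paraxial mesoderm and the somites, out of 32750 named genes on the array. They were chosen by name after the ratios of several of them on these same arrays were known, so the ratios below describe them and test nothing. Each of the 9 was matched through the transcript accessions in the files, to 10 probes in all, and 8 of the 9 were well above background in a genotype on both arrays.

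The arrays set posterior tissue of Cdx2+/-Cdx4-/- mouse embryos, which keep a working copy of Cdx2 and none of Cdx4, against that of wildtype embryos. Embryos were taken at 13 somites and cut at the border of the youngest somite, so the tissue holds what lies behind it. Each genotype was 1 pool of tissue from 7 embryos. On replicate 1 the mutant RNA was labelled with Cy5 and the wildtype RNA with Cy3, and on replicate 2 the dyes were swapped. The strain and the sex of the embryos are not given in the sources used here. With 1 pool per genotype there is no biological replicate and no test between genotypes; errors are SDs over both arrays (n = 2) and measure technical spread. In pooled tissue, a change in the number of cells of a type and a change in RNA per cell cannot be told apart. Nor can a difference between the pools in the exact place of the cut or the exact stage be told apart from the genotype.

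The paraxial mesoderm lies on both sides of the neural tube. New cells join it from the tailbud, pass through the presomitic mesoderm, and separate at its front end as epithelial balls, the somites. A somite later splits into the sclerotome, which forms vertebrae and ribs, and the dermomyotome, which forms muscle and dermis. Cdx genes encode homeodomain proteins of the posterior embryo that are needed for the body axis to extend. Meox1, Tcf15, Foxc1 and Foxc2 come on in the anterior presomitic mesoderm or the new somites, Pax3 marks presomitic mesoderm, dermomyotome and dorsal neural tube, and Pax1 and Pax9 mark the sclerotome.

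Of 41174 gene spots, between 77.4% and 82.5% were well above background in each channel, by the scanner software's flag. Median spot signals were 146 to 160 against medians of 91.3 to 113 at the 314 negative control spots, so most of the array is dim. That flag was also raised at 12.4% and 8.92% of the negative control spots in Cy3 and at 1.27% and 0% in Cy5, so a flagged dim spot in Cy3 can still be background. Cdx4 had a log2 ratio of -2.52 ± 0.12 (SD, n = 2 arrays) and Cdx2 of -0.05 ± 0.09 and Cdx1 of 0.19 ± 0.09. The Cdx4 signal of the mutant pool was still flagged well above background on both arrays. The Y-linked genes Ddx3y (0.58 ± 0.16) and Uty (0.50 ± 0.27) were higher in the mutant pool on both arrays. Xist had a log2 ratio of -2.17 ± 0.18 and was not well above background in the mutant pool. The sex mix of the pools and the genotype therefore cannot be told apart. T, Tbx6, Msgn1 and Hes7, markers of the labelled tissue, were all flagged well above background in both pools on both arrays. Hes7 was dim, at a mean log2 brightness of 6.60 against 6.41 for Meox2. Of the muscle regulators, Myf5, Myf6 and Myog were not detected, while Myod1 was well above background in both pools on both arrays, with a log2 ratio of -0.03 ± 0.28.

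The comparison asked how genes of the posterior embryo respond to reduced Cdx function. Meox1, Tcf15, Foxc2 and Foxc1 were higher in the mutant pool, by 4.34-fold, 4.06-fold, 2.56-fold and 2.27-fold. Meox2, Pax3, Pax9 and Eya1 lay within 0.13 of 0 on the log2 scale, and Pax1 was not detected. A gene was called when its ratio reached 1.5-fold, a log2 ratio of 0.585, on each array and with one sign. By that rule 4 of the 8 detected members were called higher and 0 lower, where 0.209% of all 25853 detected genes were called higher and 0.232% lower. As processed here, all 4 also passed at 2-fold on each array, against a background of 0.0774% higher and 0.0271% lower. With median centring in place of loess, Foxc1 at 0.604 and Foxc2 at 0.796 on replicate 2 fell short of 2-fold. All 4 called members were flagged well above background in both pools, so by that flag none was counted only through the pool where it was high. For Meox1 the wildtype signal was close to background, as given below. The median log2 ratio of the 8 was 0.65, and that of all detected genes was 0.00. That median lies between Eya1 at 0.12 and Foxc1 at 1.18, with no member near it. It fell to 0.12 over all 9 members with no detection filter and to 0.19 without replicate 1, where Pax1 also counted as detected.

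**Figure D1:**
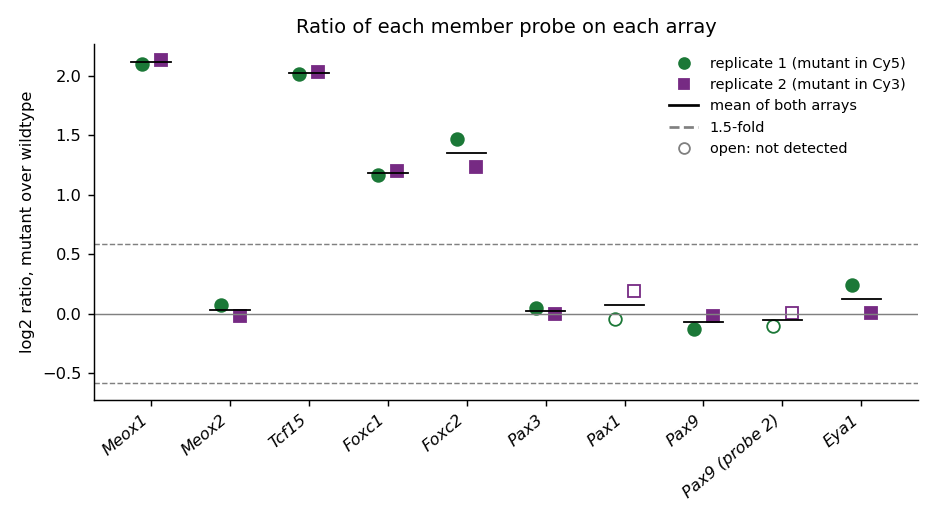
Log2 ratio of mutant over wildtype for each of the 10 member probes, on replicate 1 (circles) and replicate 2 (squares), with the mean as a bar, dashed lines at 1.5-fold and open symbols for probes not detected. Meox1, Tcf15, Foxc1 and Foxc2 lie above the upper dashed line on both arrays, and the other probes lie between the dashed lines.

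Meox1 and Meox2 are homeobox genes that act together in somite patterning. The Meox1 probe, at chr11:101565190-101565249 in the coordinates of the files, which name no genome build, gave mean signals of 674 in the mutant and 147 in the wildtype channel on replicate 1. On replicate 2 they were 412 and 169. After normalization the log2 levels were 8.98 and 8.89 in the mutant pool and 6.88 and 6.76 in the wildtype pool, so the pools did not overlap. The log2 ratios of 2.10 and 2.13 gave a mean of 2.12 ± 0.02. That SD comes from 2 values; the SD between arrays over the 2000 detected genes nearest to Meox1 in brightness was 0.15, which is still small beside the ratio.

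The wildtype Meox1 signal was close to background. In Cy3, on replicate 1, it lay above 97.5% of the negative control spots, whose highest reading was 182, and in Cy5, on replicate 2, above all of them. The size of the fold therefore moves with the background step. It was 3.38-fold without background subtraction and 7.92-fold by the scanner software's own ratio, and the mutant stayed higher on each array under both.

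Meox2, at chr12:32202705-32202764, did not move beyond its spread. It read 127 in the mutant and 126 in the wildtype channel on replicate 1, and 128 and 123 on replicate 2. All 4 lie near the negative control spots, and the wildtype reading in Cy3 exceeded 90.8% of them. The log2 ratio was 0.08 and -0.02 on the arrays, a mean of 0.03 ± 0.07, smaller than the SD of 0.23 among genes of its brightness. A difference in Meox2 was not detectable at this signal. The log2 ratio of Meox1 exceeded that of Meox2 by 2.09 ± 0.09.

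Tcf15, also called paraxis, encodes a basic helix-loop-helix protein required for somites to become epithelial. Its probe, at chr2:152212296-152212355, read 1123 in the mutant and 214 in the wildtype channel on replicate 1, and 580 and 265 on replicate 2. Normalized log2 levels were 9.70 and 9.51 in the mutant pool against 7.69 and 7.48 in the wildtype pool. Every channel exceeded all negative control spots. The log2 ratio was 2.02 and 2.03, a mean of 2.02 ± 0.01, against an SD of 0.14 for genes of like brightness. Tcf15 was less sensitive than Meox1 to the background step, at 3.49-fold without subtraction and 5.43-fold by the software's ratio.

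Foxc1 and Foxc2 are forkhead genes that are jointly needed for paraxial mesoderm to form somites, and both are also active in developing vessels. Foxc1, at chr13:31189070-31189129, read 1606 in the mutant and 465 in the wildtype channel on replicate 1, and 959 and 787 on replicate 2. The narrow gap on replicate 2 sets Cy3 against Cy5, and the median spot was brighter in Cy5 on both arrays. Once the dyes were normalized, the levels were 10.2 and 10.3 in the mutant pool and 9.05 and 9.13 in the wildtype pool. The log2 ratio was 1.17 and 1.20, a mean of 1.18 ± 0.02. The fold of Foxc1, as a mean of both arrays, stayed between 2.16-fold and 2.43-fold over 8 alternative settings. With median centring its log2 ratios were 1.61 on replicate 1 and 0.60 on replicate 2.

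Foxc2, at chr8:120567819-120567878, read 813 in the mutant and 224 in the wildtype channel on replicate 1, and 389 and 280 on replicate 2. The normalized levels were 9.23 and 8.83 against 7.76 and 7.59. Its log2 ratio of 1.47 and 1.24, a mean of 1.35 ± 0.17, varied more between arrays than those of the other 3. The ratios of the paralogs differed by 0.17 ± 0.19, less than the spread between arrays. Endothelial markers, which share tissue with the Foxc genes, went the other way: each of the 11 detected of 12 listed had ratios under 0 on the 2 arrays, and their median was -0.42. With median centring in place of loess, 8 of the 11 lay below 0 on both arrays. The summed normalized level of the 11 was 3483 and 3234 in the mutant pool and 5049 and 4907 in the wildtype pool. Erg was not detected, and the part of these cells in the Foxc values was not tested.

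**Figure D2:**
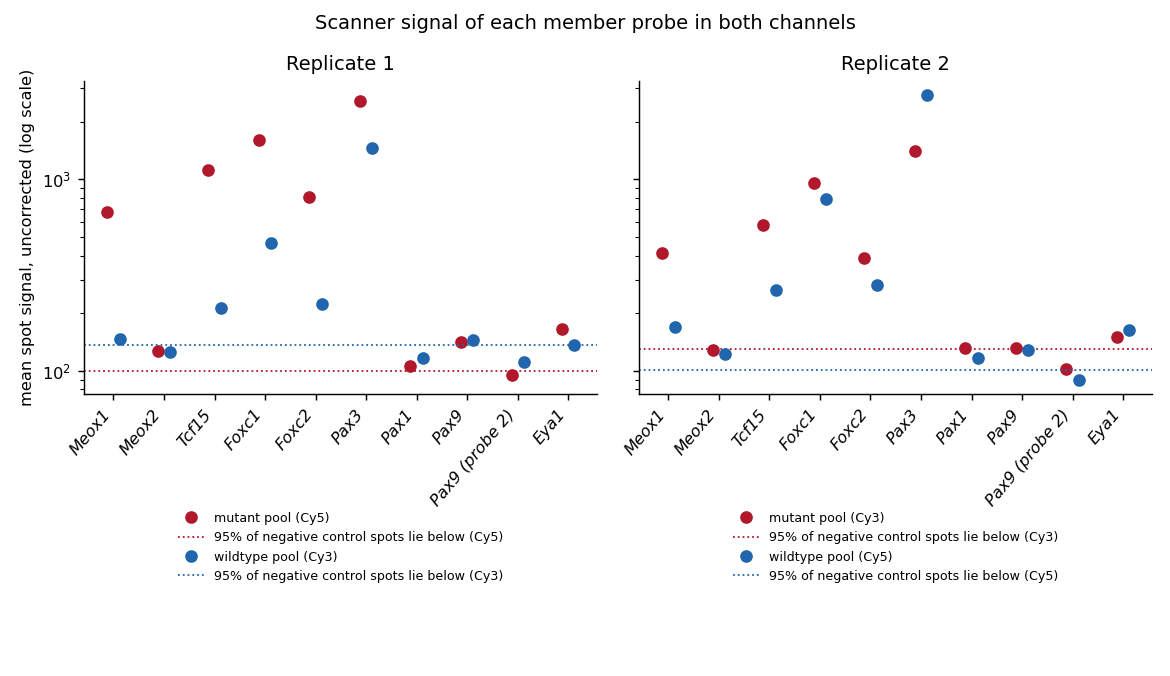
Mean spot signal, uncorrected and on a log axis, of each member probe in the mutant (red) and wildtype (blue) channel of each array, with dotted lines at the level below which 95% of the negative control spots of that dye lie. Meox1, Tcf15, Foxc1, Foxc2 and Pax3 stand clear of the dotted lines in the mutant channel, while Meox2, Pax1, Pax9 and Eya1 lie near them.

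Pax genes encode paired-domain factors. Pax3, at chr1:78651661-78651720, was far above the negative control spots, at 2560 in the mutant and 1462 in the wildtype channel on replicate 1, and 1406 and 2748 on replicate 2. In both arrays the Cy5 channel was the brighter, whichever pool it carried. The normalized levels were 10.9 and 10.9 in the mutant pool and 10.8 and 10.9 in the wildtype pool, so the pools overlapped. With median centring, which leaves in the part of the dye effect that changes with brightness, the arrays gave 0.54 and -0.67. Its log2 ratio of 0.05 and 0.00, a mean of 0.02 ± 0.04, was well clear of background and smaller than the SD of 0.16 among genes of its brightness. Pax3 is shared with the neural tube, where Sox2, a factor of neural progenitors, was 1.75-fold higher in the mutant pool, a call that ended with median centring. The summed level of 7 detected neural tube markers was 2992 and 3322 in the mutant pool and 2669 and 2953 in the wildtype pool, and that of 6 neural crest markers 1482 and 1481 against 1521 and 1676. Their part in the Pax3 value was not tested.

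Pax9, of the sclerotome and the pharynx, was measured by 2 probes. One is placed at chr12:51891086-51893956, a span far longer than those of the other probes, and the other lies at chr12:51904701-51904760. The first read 142 and 145 on replicate 1 and 131 and 129 on replicate 2, mutant then wildtype, with a log2 ratio of -0.07 ± 0.08. The second, at 94.9 and 111 and then 102 and 89.8, was not well above background in any channel. Pax1, at chr2:147127008-147127067, read 106 in the mutant and 117 in the wildtype channel on replicate 1, and 132 and 116 on replicate 2. It was well above background on replicate 2 alone, so no ratio is read from it.

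Eya1, at chr1:14363205-14363264, encodes a transcriptional coactivator with phosphatase activity. In the mutant channel it read 166 and 150, and in the wildtype channel 136 and 164, on replicates 1 and 2. Its log2 ratio was 0.24 on the first array and 0.01 on the second, a mean of 0.12 ± 0.17, within its own spread and within the SD of 0.20 among genes of its brightness. Of 9 listed partners and relatives, among them Eya2 and Dach1, all were detected and none was called, with a median of 0.03. Dach1 had 0.31 ± 0.09.

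Promoter sequences of Foxc1, Meox2, Pax9 and Pax1 were in the RefSeq table of GRCm38.p6 used here. Those of Meox1, Tcf15, Foxc2, Pax3 and Eya1 were not matched. That build differs from the one behind the probe coordinates above. The 250 bases before the transcription start are shown for Foxc1, the 1 called member of the 4, and for Meox2 and Pax9, the 2 that were detected and not called. Capitals mark the letters TTTAT, the core that Cdx proteins are known to bind, or its reverse complement ATAAA. Foxc1 lies at chr13:31806396-31806645, Meox2 at chr12:37108290-37108539 and Pax9 at chr12:56695221-56695470, all on the plus strand.
Foxc1: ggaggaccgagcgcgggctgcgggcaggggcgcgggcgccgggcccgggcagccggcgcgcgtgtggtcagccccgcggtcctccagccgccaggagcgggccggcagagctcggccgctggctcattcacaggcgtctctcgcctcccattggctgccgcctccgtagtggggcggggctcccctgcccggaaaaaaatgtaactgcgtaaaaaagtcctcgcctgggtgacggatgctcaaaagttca
Meox2: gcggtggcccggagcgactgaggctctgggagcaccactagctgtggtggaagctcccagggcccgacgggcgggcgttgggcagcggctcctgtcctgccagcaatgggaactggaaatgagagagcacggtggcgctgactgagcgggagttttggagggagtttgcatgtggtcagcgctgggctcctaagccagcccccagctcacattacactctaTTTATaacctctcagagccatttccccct
Pax9: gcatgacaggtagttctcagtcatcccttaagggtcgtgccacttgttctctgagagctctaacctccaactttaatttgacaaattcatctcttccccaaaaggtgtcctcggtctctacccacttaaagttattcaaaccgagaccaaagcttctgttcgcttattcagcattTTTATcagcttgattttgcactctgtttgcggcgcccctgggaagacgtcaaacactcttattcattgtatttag

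The Foxc1 window held neither form of the core, that of Meox2 held it once, 29 bases before the start, and that of Pax9 once, 75 bases before the start. In Meox2 they overlap TTTATA, the letters of a TATA box read on the opposite strand. On both strands, 37.3% of the 32851 promoter windows of this length in the table held TTTAT or ATAAA. Searched on both strands in the same way, the letters TGGGAA, bound by the Notch effector Rbpj, were in 21.6% of windows, those of Meox2 and Pax9 included. AGGTGT, a core bound by T-box factors, was in 11.8%, that of Pax9 included. The Foxc1 and Pax1 windows held none of these letters. G and C made up 70.8% of the Foxc1 window, 62.0% of that of Meox2 and 43.6% of that of Pax9.

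Among all detected genes ordered by the smaller of both arrays' ratios, Meox1 stood at place 1 of the increases, Tcf15 at 3, Foxc2 at 13 and Foxc1 at 15. Meox1 exceeded Tcf15 by 0.08 and 0.10 on the log2 scale, a mean of 0.09 ± 0.01. That gap went beyond its own SD but was less than the SD of about 0.15 that genes of this brightness show between arrays. The order turned without background subtraction, at 1.76 against 1.80. Tcf15 exceeded Foxc2 by 0.67 ± 0.17 and Foxc1 by 0.84 ± 0.02. So Meox1 and Tcf15 formed an upper pair and the Foxc genes a lower pair. As reported, the order inside the Foxc pair did not go beyond its own spread between arrays. That of Meox1 and Tcf15 did not go beyond the spread of genes of like brightness. The gaps moved with the background step. Meox1 stood at 2.545 against 2.249 for Tcf15 with an offset of 16, and at 2.985 against 2.441 by the scanner software's ratio. By that ratio Foxc2 stood at 1.72 against 1.281 for Foxc1. The 3 genes nearest to Meox1 in the plane of both ratios were Ripply2, at a distance of 0.05, Pcdh8 at 0.19 and Arg1 at 0.31. A distance over 2 arrays of the same pools says little about shared behaviour elsewhere. Ripply2, a repressor at the forming somite border, had 2.12 and 2.09, and Pcdh8, a protocadherin of the same region, 1.94 and 2.03.

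**Figure D3:**
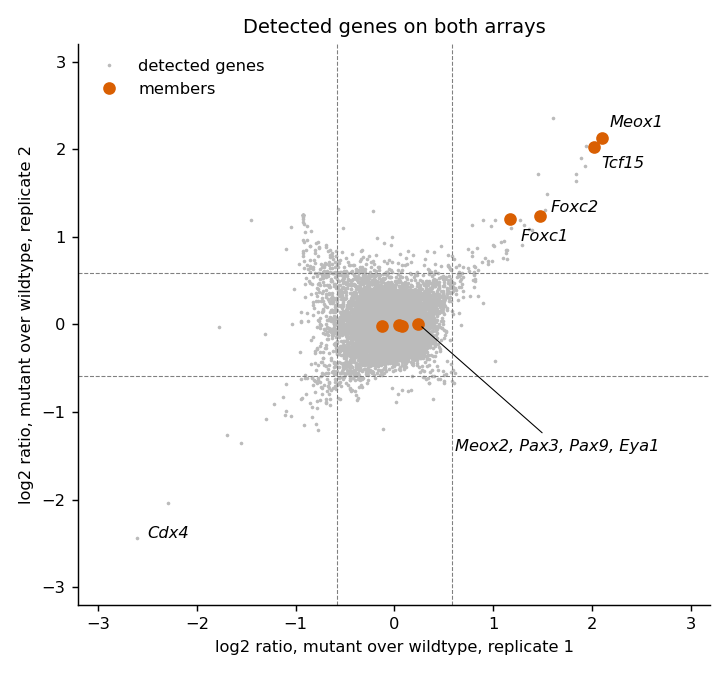
Log2 ratio of mutant over wildtype on replicate 2 against replicate 1 for all 25853 detected genes (grey) and the 8 detected members (orange), with dashed lines at 1.5-fold. Meox1 and Tcf15 lie at the upper right end near 2 on both axes, Foxc1 and Foxc2 between 1.17 and 1.47, and Meox2, Pax3, Pax9 and Eya1 in the centre of the cloud.

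Somite genes, relatives by protein family and markers of neighbouring tissues were read in 13 lists of 114 genes, of which 95 were detected, 6 were called higher and 3 lower. In the list for presomitic mesoderm and somite formation, 16 of 18 genes were detected and 3 were called higher, with a median of 0.09, or 0.02 on replicate 1 and 0.18 on replicate 2. The called genes were Ripply2 (4.30-fold), Mesp1, a factor of early and anterior presomitic mesoderm (1.63-fold), and the Notch ligand Dll1 (1.59-fold). The other 13 were not called. Among them were Mesp2, Lfng and Epha4, which act where somite borders form, at -0.02 ± 0.02, 0.12 ± 0.15 and 0.15 ± 0.15, and the presomitic regulators Tbx6, at 0.06 ± 0.16, and Msgn1, at -0.12 ± 0.03. The other detected Mesp2 probe gave 0.28. Lfng was dim, at a mean log2 brightness of 6.26 against 6.41 for Meox2. Notch1 had 0.42 ± 0.03, Dll3 0.34 ± 0.11 and Snai1 -0.45 ± 0.20, also without a call. Of the 16, 8 lay above 0 on both arrays and 4 below 0 on both. Summed over the 16, normalized levels were 19110 and 19910 in the mutant pool and 18500 and 18050 in the wildtype pool.

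Markers of later somite compartments were mostly weak. In the sclerotome list 10 of 11 genes were detected, with a median of 0.07. Col2a1, the cartilage and notochord sheath collagen, was the 1 called, at 2.33-fold higher (log2 ratio 1.22 ± 0.13). Twist1 had -0.15 ± 0.06, and Nkx3-2, a known target of Pax1 and Meox1, had 0.07 ± 0.07. In the dermomyotome and myotome list 4 of 11 were detected. Dmrt2, a dermomyotome factor, was 1.92-fold higher in the mutant pool, with log2 ratios of 1.14 and 0.75 on the arrays. Wildtype spots on both arrays failed the background flag, so it counted as detected only through the mutant pool. The size of its ratio hangs on the background step. It was 0.63 without background subtraction and 3.04 by the scanner software's ratio. Pax7, which overlaps with Pax3 in function, had 0.03 ± 0.02.

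Among relatives of the members by protein family, 1 was called higher and 1 lower. None of 5 detected other Pax genes was called (median 0.01), with Pax8 at 0.21 ± 0.14 and Pax6 at -0.07 ± 0.04. None of 10 other forkhead genes was called (median -0.07), with Foxf1 at -0.17 ± 0.11 and Foxf2, a lateral mesoderm factor, at -0.58 ± 0.26. Among 7 detected basic helix-loop-helix relatives of Tcf15, Mesp1 was higher and Twist2, a factor of dermis and bone precursors, was 1.59-fold lower (-0.66 ± 0.10). Differences between these lists and the members were not tested.

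Markers of neighbouring tissues gave 1 call higher and 2 lower. In the neural tube list 7 of 10 were detected with a median of 0.36. The same 7 had medians of 0.13 on replicate 1 and 0.28 on replicate 2, and the median of all 10 with no detection filter was 0.07. Without replicate 2, when 8 counted as detected, it was 0.08. Sox2 was called, beside Irx3 at 0.46 ± 0.25. Pax6, at -0.07 ± 0.04, and Nkx6-1, at -0.09 ± 0.11, lay below 0 on both arrays, while 4 of the 7 lay above 0 on both. The other detected Nkx6-1 probe gave 0.36. Sox3, Olig2 and Neurog2 were not detected, and the summed levels given above were higher in the mutant pool on each array. The lower mutant sum, 2992, was close to the higher wildtype sum, 2953. Nkx6-1, the brightest of the 7, weighs most in these sums. Of 11 detected endothelial genes, Cldn5 (2.09-fold) and Sox18 (1.62-fold) were called lower. None was called among 6 neural crest genes, with Ets1 at -0.56 ± 0.07 and Tfap2b at 0.15 ± 0.00. The same held for 11 genes of intermediate and lateral mesoderm, with Lhx1 at 0.49 ± 0.73 and summed levels of 6602 and 5838 in the mutant pool against 6433 and 7094, and for 8 of gut and pharynx, with Cdh1 at 0.21 ± 0.08. Of 5 detected notochord genes none was called, with T at -0.49 ± 0.03 and Foxa2 at 0.33 ± 0.10. The other 3, Shh, Chrd and Foxj1, had 0.02 ± 0.12, 0.03 ± 0.08 and -0.08 ± 0.05, and the list's median was 0.02. The part of these tissues in the members' ratios was not tested.

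**Figure D4:**
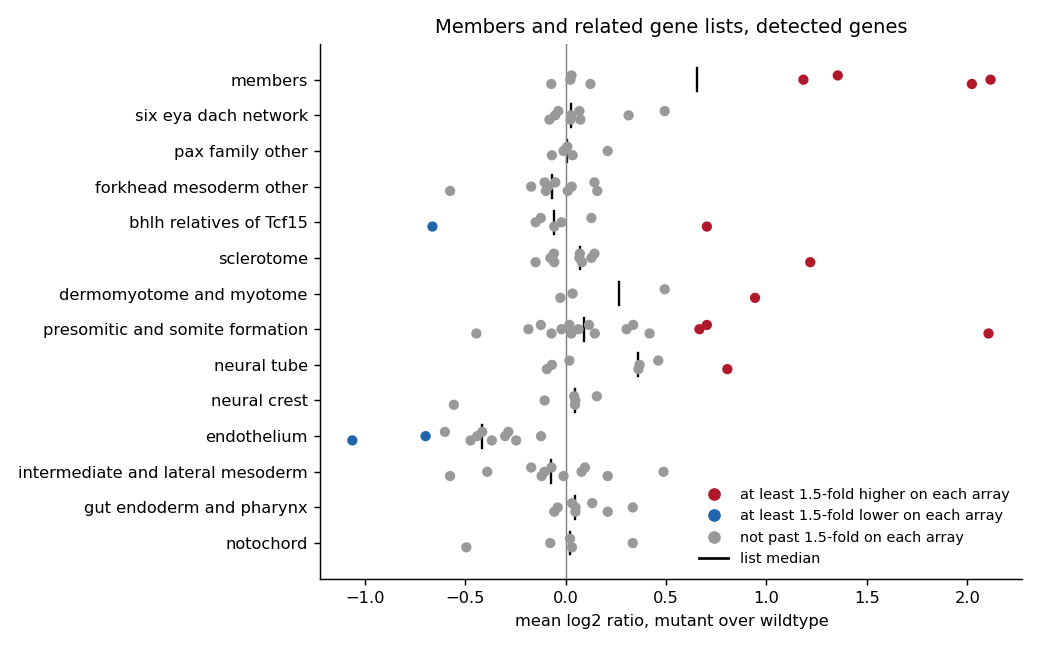
Mean log2 ratio of mutant over wildtype for each detected gene of the member list and of 13 related lists, in red where called higher, blue where called lower and grey otherwise, with a bar at each list's median. The members' 4 red points lie between 1.18 and 2.12, and all 11 endothelial points lie left of 0.

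The 4 members kept their calls under the processing that was tried, with folds that varied. Over 8 alternative settings of background, normalization, probe choice and filters, all 4 were called each time. Aquantile, the median over probes, no detection filter and keeping non-uniform spots left their ratios unchanged, so these could not end a call. The settings that moved their ratios were no background subtraction, the smaller offset, the software's ratio and median centring. Their lowest ratio on any single array was 0.60 for Foxc1, 0.80 for Foxc2 and 1.55 for Tcf15, all with median centring, and 1.72 for Meox1 without background subtraction. Foxc1 thus stood just above the 0.585 of the rule. Meox2 and Pax3 changed sign in 1 setting each while staying within 0.07 of 0. Of the related genes called, Ripply2 and Cldn5 kept their calls in every such setting. Mesp1, Twist2 and Sox18 lost theirs without background subtraction and with median centring, Col2a1, Dll1 and Sox2 with median centring, and Dmrt2 without background subtraction and by the software's p-value.

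**Figure D5:**
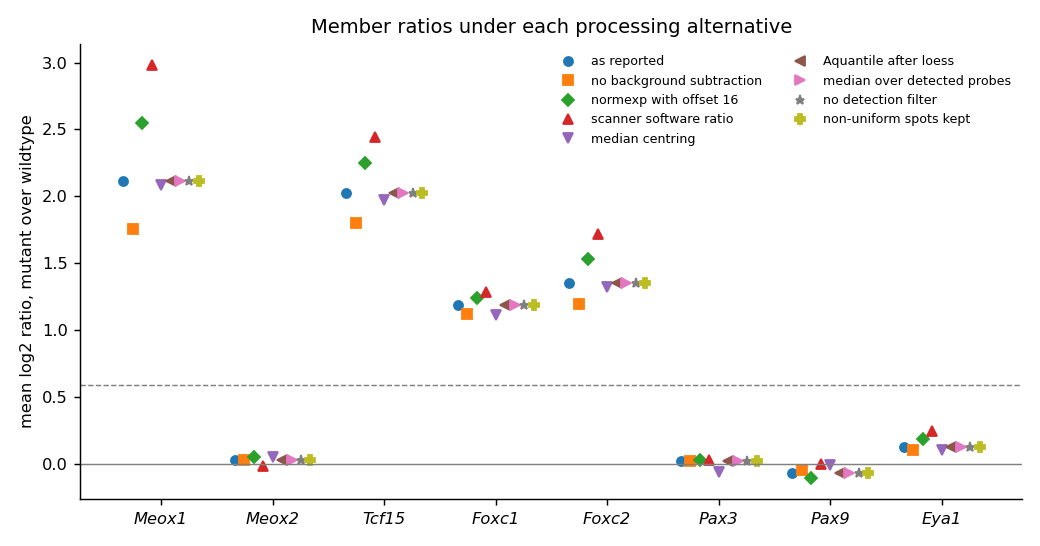
Mean log2 ratio of mutant over wildtype of the 8 detected members as reported and under 8 alternative settings (symbols), with a dashed line at 1.5-fold. Meox1 spreads from 1.76 to 2.98 and Tcf15 from 1.80 to 2.44, Foxc1 stays between 1.11 and 1.28, and Meox2, Pax3, Pax9 and Eya1 stay below 0.25.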

How the data were processed

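RNA of 1 pool per genotype was compared on 2 dual-colour arrays with swapped dyes. The deposited intensity values are mean spot brightness and median local background, uncorrected, by their column headers. A log10 ratio of Cy5 over Cy3 and the p-value of its error model, both from the scanner software, were also deposited. That software is Agilent Feature Extraction, version 9.5.3 in the submitters' processing notes and 7.5.1 in the file headers. The signals were background-corrected by normexp with an offset of 50, which shrinks ratios of dim genes, and normalized by loess within each array, with controls at weight 0, in limma 3.58.1 (R 4.3.3). Non-uniform spots were left out (205 and 90). Levels per pool are log2 values after loess and Aquantile. Detected means well above background in 1 genotype on both arrays. The brightest detected of a gene's probes stood for it. Names came from accessions (19435 probes), current symbols (3620), synonyms (2908) or the files (14494), through a RefSeq table of GRCm38.p6; 556 probes matched several genes and were left out. Steps were tested on simulated dye swaps. Members, lists and rules were chosen with earlier results of these data known. From each list, up to 3 called genes with the largest smaller ratio, or the largest mean ratios to make 2, were named, with the 3 genes nearest to Meox1. Tbx6, Msgn1, Hes7, Mesp2, Lfng, Epha4, Notch1, Dll3, Snai1, Nkx6-1, Myod1, Shh, Chrd, Foxj1, Nkx3-2, Pax7, Ddx3y, Uty, Xist and undetected markers were named after their values were seen. One gene of the related lists is not reported by name here.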

Additional observations from a re-analysis of the deposited data

How the results depend on the processing

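No paired analysis was possible because there was 1 pool per genotype, both on every array. The count of members called stayed at 4 higher and 0 lower under all 14 alternatives, leaving out either array included. Many of these could not remove a call. The main rule asked for 1.5-fold on each array, so either array alone, 1.3-fold or the arrays' mean had to keep the 4. Aquantile, the median over probes and the changed filters left the ratios of the 4 as they were. The counts over all genes, 54 higher and 60 lower, did not. The scanner software's ratio gave 166 higher and 189 lower, its p-value under 0.01 gave 83 and 106, and median centring gave 27 and 16. A threshold of 2-fold left 20 higher and 7 lower, and one of 1.3-fold raised them to 139 and 194. Lower calls fell to 38 when background was not subtracted, and rose to 91 at the smaller offset (16) or to 94 when the arrays' mean had to pass. On 1 array alone, where dye effects remain, higher calls ranged from 92 to 318 and lower calls from 126 to 464. Higher calls were 47.4% of all calls as reported and 62.8% with median centring, where 40 of the 114 called genes kept their call. The cause of these changes was not tested. Signal over background limits Meox2, Pax1, Pax9, Eya1 and the wildtype level of Meox1.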
